A study of Arabidopsis thaliana with 21 samples.

Results

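The plastid genome of Arabidopsis thaliana was followed through 69 probe sets of the ATH1 array, each paired with a single gene whose locus tag begins with ArthCp, out of 22746 probe sets tested. The 69 probe sets stand for 69 genes, where the RefSeq table lists 85 protein gene entries of the plastid. By role they divide into 7 genes of photosystem I and its assembly, 15 of photosystem II, 6 of the cytochrome b6f complex, 6 of the ATP synthase, 10 of the NDH complex, 1 of Rubisco, 4 of the RNA polymerase, 8 of the small and 7 of the large ribosomal subunit, and 5 others (accD, clpP, cemA, ccsA and matK). Another 8 probe sets that pair with both copies of a duplicated plastid gene were kept apart, as were 23 probe sets of mitochondrial genes.

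The study searched for small molecules that inhibit the transcriptional response to auxin. Light-grown seedlings, 7 days old and kept in liquid culture, were treated for 1 h, and total RNA was hybridised to 21 arrays. The groups were 5 µM indole-3-acetic acid (IAA, the main natural auxin) with 10 µM compound A (n = 3), 5 µM IAA with 10 µM compound B (n = 3), 5 µM IAA (n = 4), 10 µM compound A (n = 4), 10 µM compound B (n = 3) and the solvent DMSO (n = 4). The labels name the compounds only by letter. The array records give the accession Col-0 and medium with 1.5% sucrose. Nothing in them tells if replicate arrays stem from different flasks of seedlings, and the p-values therefore measure only the spread between these arrays, which may be technical.

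Plastids keep a small circular genome that codes for core subunits of the photosynthetic complexes and for part of the plastid's own gene expression machinery. Most of its genes lie in clusters transcribed together into long RNAs that are then cut and trimmed. A plastid-encoded polymerase of the bacterial type, built from the rpoA, rpoB, rpoC1 and rpoC2 products, transcribes most photosynthesis genes with nuclear sigma factors, and a nuclear-encoded polymerase of the phage type transcribes, among others, the rpoB cluster. Plastid RNAs mostly lack the long poly(A) tails of nuclear mRNAs and are cleared faster when they carry such tails. The sources used here do not tell how the RNA was primed and labelled, so a signal may follow total RNA or the tailed part of it. In whole seedlings, fewer plastid-rich cells and less plastid RNA per cell cannot be told apart.

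Signals are log2 values, and differences are log2 differences between group means from 1 limma model over all 21 arrays, given with their standard error (SE). Adjusted p-values are limma's, by the Benjamini-Hochberg method over all 22746 probe sets, two-sided, with a threshold of 0.05. The array medians lay between 7.17 and 7.25, and the median of all probe sets moved by at most 0.03 in any comparison. The number of arrays limits the precision. The record of the array labelled IAA 2 names compound B. On that array GRX480, a glutaredoxin gene high in B arrays (10.26 to 10.66), read 5.18, against 5.37 to 6.19 in the other IAA arrays, and the auxin-induced GH3.3 read 13.31, against 8.45 to 8.65 in B arrays. The label was kept, and the counts of genes past the threshold are also given without this array. Medians, counts of positive differences, counts of groups without overlap and differences of single genes include it.

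The 69 plastid signals were on the whole lowest in the DMSO arrays. As a level per array, each member's signal was taken relative to its own mean over the 21 arrays, and the median over the 69 members was read. This level was 0.23, -0.06 and 0.26 in the IAA with A arrays, 0.52, 0.03 and 0.46 in the IAA with B arrays, -0.09, 0.07, -0.07 and -0.15 in the IAA arrays, 0.11, -0.36, 0.19 and -0.25 in the A arrays, 0.02, 0.38 and 0.28 in the B arrays, and -0.41, -0.25, -0.35 and -0.22 in the DMSO arrays. All arrays of B, IAA with B, IAA with A and IAA lay above the highest DMSO array, whereas A 1 and A 3 lay above the DMSO arrays and A 2 and A 4 within their range. The group means were 0.14 ± 0.18 for IAA with A, 0.34 ± 0.27 for IAA with B, -0.06 ± 0.09 for IAA, -0.08 ± 0.27 for A, 0.23 ± 0.19 for B and -0.31 ± 0.09 for DMSO (SD).

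**Figure D1:**
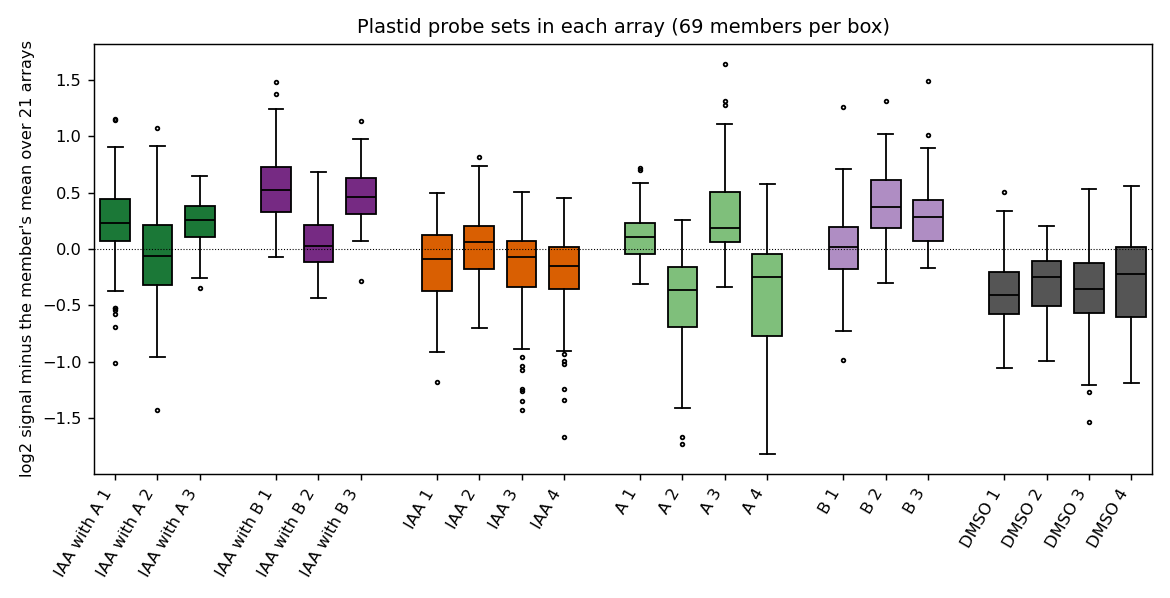
Deviation of the 69 plastid probe sets from their own means in each of the 21 arrays (y axis, log2 signal minus the mean over 21 arrays); boxes show the quartiles with the median line, whiskers reach the last value within 1.5 box lengths, and colours mark the 6 groups. The DMSO medians lie between -0.41 and -0.22, the B medians between 0.02 and 0.38, and the A medians between -0.36 and 0.19.

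The signal of the control probe set for 25S rRNA differed between groups as well, with its lowest mean in B (5.88) and its highest in DMSO (7.37). It read 6.17 to 7.14 in IAA with A, 6.20 to 6.59 in IAA with B, 6.31 to 7.40 in IAA, 5.65 to 7.28 in A, 5.63 to 6.14 in B and 5.93 to 8.25 in DMSO. Within DMSO, array DMSO 4 had the lowest 25S rRNA signal (5.93) and the highest plastid level (-0.22), and within A, array A 4 had the lowest 25S rRNA signal (5.65) with a plastid level of -0.25. The 5S rRNA control probe set was also higher with B in both comparisons. It read 4.15 to 4.46 in B, against 3.77 to 3.92 in DMSO, and 4.19 to 5.06 in IAA with B, against 3.78 to 4.16 in IAA, with no overlap in either. In IAA with A it read 3.69 to 4.18, which overlapped IAA, and in A 3.73 to 4.44, which overlapped DMSO. The difference between 3' and 5' probe sets, a sign of RNA integrity, ran over all arrays from -0.29 to 0.30 for GAPDH and from 1.00 to 1.26 for ubiquitin. For GAPDH it was -0.17 to -0.12 in IAA with A, all below the -0.07 to 0.06 of IAA. In IAA with B it was -0.17 to 0.13, which overlapped IAA, and in B -0.01 to 0.07, which overlapped the -0.05 to 0.30 of DMSO. For actin it was 1.961 to 2.33 in B, all above the 1.63 to 1.956 of DMSO, and 1.54 to 2.43 in IAA with B, against 1.50 to 1.73 in IAA. It was 1.54 to 1.76 in IAA with A and 1.53 to 2.19 in A. The part of the 5S rRNA signal and of the GAPDH and actin differences in the plastid results was not tested. With the 25S rRNA signal as a covariate, an alternative added after seeing the data, the plastid genes past the threshold numbered 4 in B against DMSO, against 18 without it, and 9 in IAA with B against IAA, against 13 without it.

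**Figure D2:**
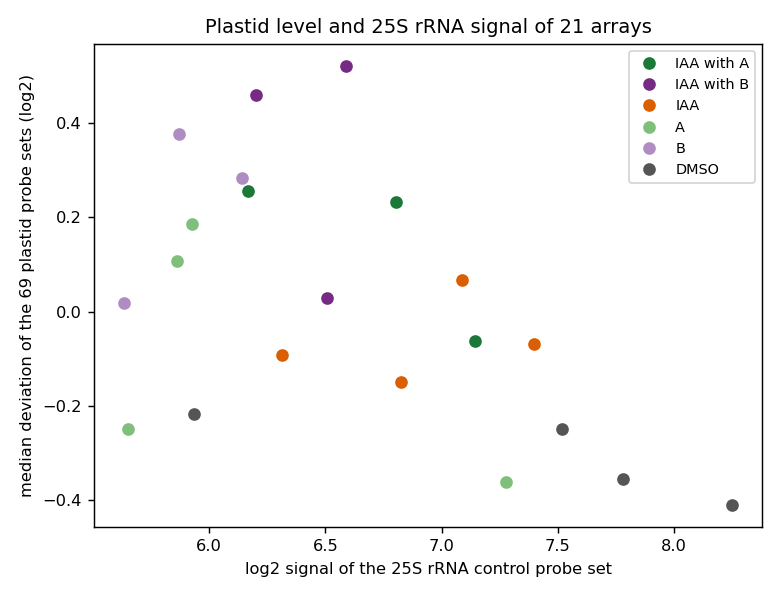
Median deviation of the 69 plastid probe sets (y axis, log2) against the log2 signal of the 25S rRNA control probe set (x axis), 1 point per array and 1 colour per group. The 4 DMSO arrays lie at or below -0.22, 3 of them to the right of 7.5, and the 3 B arrays lie above 0.01 between 5.63 and 6.14.

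With compound B alone, plastid signals were higher in most functional groups. In B against DMSO, 18 of 69 members were past the threshold, all higher, where 8.75% of all probe sets were past it and 3.99% were past it upward. The rises ran from 1.45-fold for ndhC to 4.22-fold for rpl36. The median difference over the 69 members was 0.53 against 0.01 over all probe sets, and 66 members had a positive difference. In 34 members all 3 B arrays lay above all 4 DMSO arrays, which 8.10% of all probe sets did. The count was 8 without array DMSO 1, 11 without DMSO 3, 7 without B 2 and 6 without B 3, and 14 without the array labelled IAA 2.

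Ribosomal protein genes made up 6 of the 18. For the large subunit 3 of 7 rose (rpl36, rpl14 and rpl16), and for the small subunit 3 of 8 (rps2, rps16 and rps4). The gene rpl36 (ArthCp057), which codes for one of the smallest ribosomal proteins, read 10.33, 10.38 and 10.56 in B arrays, against 8.17, 8.77, 7.90 and 8.54 in DMSO arrays. The B arrays lay close together (SD 0.12) and above every DMSO array, with a difference of 2.08 ± 0.39 (adjusted p = 0.00145). rpl14 rose by 1.41 ± 0.30 (adjusted p = 0.0035), and rpl16 (ArthCp060) by 1.096 ± 0.30 (adjusted p = 0.0229). Among the ribosomal genes that did not pass, rps14 (ArthCp020) differed by 1.20 ± 0.40 (adjusted p = 0.0760) and rpl32 by -0.01.

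The RNA polymerase subunits had the highest median difference of any role in B against DMSO, 1.06, and 3 of 4 rose. rpoC2 rose by 0.92 ± 0.20, rpoA by 1.27 ± 0.33 and rpoC1 by 0.77 ± 0.23. rpoB (ArthCp014), the gene of the catalytic beta subunit, read 7.79, 8.18 and 8.15 in B arrays, against 6.94, 6.51, 6.24 and 7.68 in DMSO arrays. Its groups did not overlap, but array DMSO 4 came close to the lowest B array, and the difference of 1.20 ± 0.37 missed the threshold (adjusted p = 0.0510).

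A run of 3 neighbouring genes between psaI and the psbE cluster rose together under B. petA (ArthCp035), the gene of cytochrome f, read 11.08, 11.39 and 11.38 in B arrays, against 9.98, 10.52, 9.84 and 9.60 in DMSO arrays. All B arrays were higher than all DMSO arrays, and the difference was 1.296 ± 0.26 (adjusted p = 0.00229). Beside it, cemA (ArthCp034), which codes for an inner envelope protein, read 10.56, 11.02 and 11.05 in B arrays, against 9.69, 10.20, 9.83 and 9.02 in DMSO arrays, a difference of 1.19 ± 0.25 (adjusted p = 0.00408). The photosystem I assembly gene ycf4 rose by 1.16 ± 0.24 (adjusted p = 0.00276). The first gene of that cluster, psaI, differed by 0.31, short of the threshold. Of the 18 rises under B, those of petA, cemA and rpl14 were past the threshold in all 29 alternative settings tried.

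Among the photosynthesis genes, counts by role ran from 4 of 10 to none. For the NDH complex, which returns electrons from ferredoxin to plastoquinone, 4 of 10 rose in B against DMSO (ndhE, ndhC, ndhG and ndhF), with a median of 0.69 and all 10 differences positive. The cytochrome b6f complex had 2 of 6 (petA and petD, which codes for subunit IV). Photosystem I had 1 of 7 (ycf4) and photosystem II 1 of 15 (psbD, for the D2 reaction centre protein), with medians of 0.44 and 0.24. None of the 6 ATP synthase genes passed (median 0.17). rbcL (ArthCp030), for the large subunit of Rubisco, read 8.11, 8.91 and 8.81 in B arrays, against 8.62, 8.30, 8.77 and 7.90 in DMSO arrays, and psbA (ArthCp002), for the D1 protein, differed by 0.00. For both genes the groups overlapped.

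**Figure D3:**
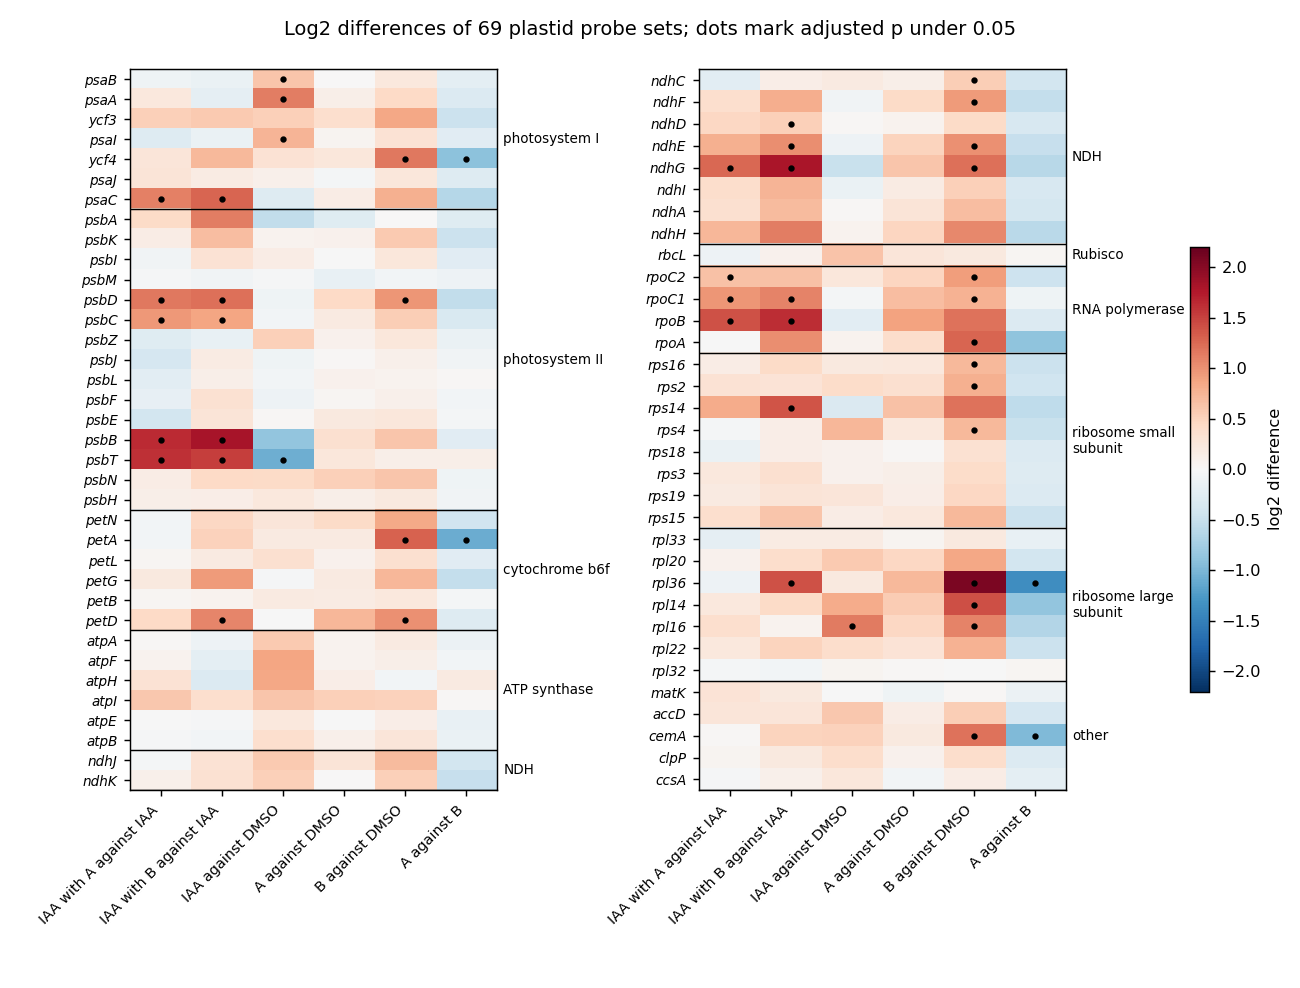
Log2 difference of each of the 69 plastid probe sets (rows, ordered by role and, within a role, by gene order) in 6 comparisons (columns); red is higher and blue lower in the group named first, and a dot marks an adjusted p under 0.05. Dots stand in 18 rows for B against DMSO and in none for A against DMSO, and the ATP synthase rows hold none.

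Compound A alone changed no plastid gene past the threshold. In A against DMSO limma made 0 calls among the 69 members, where 8.39% of all probe sets passed. At an unadjusted p under 0.05, 6 members were higher and none lower, against 2212 higher and 2715 lower of all 22746 probe sets. The median difference over the members was 0.20, and 62 members had a positive difference. The lowest adjusted p of the members was that of rpoC1, at 0.68 ± 0.22 (adjusted p = 0.0568). Array A 2, lowest in plastid level, was also the A array with the highest 25S rRNA signal (7.28, against 5.65 to 5.93 in the other 3), and with that signal as a covariate the count was 0 too. Without A 2 the count was 8, without A 4 it was 3, and without DMSO 4 it was 2.

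Set against each other at the same dose and time, the compounds differed past the threshold in 4 members, or 5.8% of the 69. In A against B, petA, ycf4, cemA and rpl36 were lower in A, where 6.37% of all probe sets were past the threshold and 2.14% were past it downward. petA read 10.08, 9.88, 10.82 and 9.97 in A arrays, against 11.08, 11.39 and 11.38 in B arrays. No A array reached a B array, and the difference was -1.10 ± 0.26 (adjusted p = 0.0155). rpl36 read 9.24, 8.16, 9.86 and 8.99 in A arrays, against 10.33, 10.38 and 10.56 in B arrays, a difference of -1.36 ± 0.39 (adjusted p = 0.0451). ycf4 differed by -0.91 ± 0.24 and cemA by -0.97 ± 0.25. Over the 69 members 63 differences were negative, with a median of -0.31. The calls depended on single arrays, since the count was 0 without B 2 or without B 3, and 1 without A 2 or without A 4. Comparisons of A and of B with DMSO share the DMSO arrays.

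Under IAA alone most plastid differences from DMSO were upward, and 1 gene passed the threshold downward. Of the 69 differences 49 were positive and 20 negative, with a median of 0.19. At an unadjusted p under 0.05, 23 members were higher and 2 lower, against 1350 higher and 1227 lower of all 22746 probe sets. In IAA against DMSO 5 of 69 members passed, 4 higher and 1 lower, where 1.91% of all probe sets passed, 1.43% upward and 0.479% downward. All 4 IAA arrays lay above all 4 DMSO arrays in 21 members, which 4.33% of all probe sets did. They lay below all 4 DMSO arrays in 1 member, and in 742 of all 22746 probe sets. Photosystem I held 3 of the 4 rises. psaA (ArthCp022), for a core subunit that carries the reaction centre, read 11.91, 12.37, 12.01 and 11.92 in IAA arrays, against 10.66, 10.81, 11.55 and 10.69 in DMSO arrays. Array DMSO 3 stood above the other DMSO arrays, but below every IAA array, and the difference was 1.13 ± 0.27 (adjusted p = 0.0331). Its neighbour psaB, for the partner core subunit, rose by 0.61 ± 0.15 (adjusted p = 0.0419). psaI (ArthCp032), for a small membrane subunit, read 11.26, 11.29, 11.35 and 11.10 in IAA arrays, against 10.23, 10.58, 10.69 and 10.48 in DMSO arrays, a rise of 0.76 ± 0.17 (adjusted p = 0.0208).

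rpl16 was the fourth gene to rise under IAA. It read 10.23, 10.69, 10.20 and 10.32 in IAA arrays, against 9.12, 9.15, 9.72 and 8.88 in DMSO arrays, a difference of 1.14 ± 0.27 (adjusted p = 0.0320). The gene that fell was psbT (ArthCp050), for a small photosystem II subunit. Its signal was 7.93, 7.97, 7.25 and 6.93 in IAA arrays, against 8.93, 8.72, 8.11 and 8.60 in DMSO arrays. Every IAA array lay below every DMSO array, and psbT fell by 1.07 ± 0.27 (difference of -1.07, adjusted p = 0.0487). Next to it, psbB (ArthCp049), for the inner antenna protein CP47, differed by -0.86 ± 0.27 (adjusted p = 0.149). In all 6 ATP synthase genes every IAA array lay above every DMSO array, with a median difference of 0.60, and none passed the threshold. atpF (ArthCp008), for a stalk subunit, read 11.68, 12.04, 11.84 and 11.87 in IAA arrays, against 10.9955, 11.01, 11.53 and 10.42 in DMSO arrays, a difference of 0.87 ± 0.32 (adjusted p = 0.251). rbcL differed by 0.62 ± 0.27 (adjusted p = 0.376).

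The count of these calls moved with single arrays. None remained without DMSO 1, without DMSO 4 or without IAA 1, and 1 was made without DMSO 2, without IAA 3 or without the array labelled IAA 2 (psbT in that case). The count was 2 without IAA 4, 3 without IAA with B 1 or IAA with B 3, and 9 without A 4. With arrays A 2, IAA with B 1, DMSO 2 and DMSO 4 all left out it was 0. The direction of each of the 5 was kept in every setting. Of 29 alternative settings, the call was lost in 6 for psaI, 7 for rpl16, 9 for psaA, 17 for psbT and 18 for psaB.

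With either compound added to IAA, some plastid genes were higher past the threshold than with IAA alone, with psbB the largest rise in each. In IAA with A against IAA 9 of 69 members rose and none fell, where 9.08% of all probe sets were past the threshold and 4.78% were past it upward. In IAA with B against IAA 13 rose and none fell, where 8.01% were past it and 3.67% were past it upward. Both comparisons share the 4 IAA arrays, so their values are given side by side. The genes past the threshold in both were psbB, psbT, psbC, psbD, psaC, rpoB, rpoC1 and ndhG, which makes 8 of the 9 and 8 of the 13. The median difference over the members was 0.16 for IAA with A and 0.35 for IAA with B. With A 46 differences were positive and 23 negative, and with B 58 and 11. The 4 genes of the psbE cluster went opposite ways, with differences of -0.40 to -0.18 with A and 0.12 to 0.33 with B. None of these 4 was past the threshold. All combination arrays lay above all IAA arrays in 13 members for IAA with A, where 11.7% of all probe sets did so, and in 23 for IAA with B, where 11.6% did.

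Photosystem II supplied 4 rises of 15 members in each combination. psbB read 11.06, 10.01 and 10.27 in IAA with A, 10.69, 10.59 and 10.60 in IAA with B, and 8.99, 9.20, 8.48 and 8.56 in IAA. All arrays of both combinations lay above all IAA arrays, and the differences were 1.64 ± 0.30 with A (adjusted p = 0.000942) and 1.82 ± 0.30 with B (adjusted p = 0.000303). psbT read 9.74, 8.53 and 9.11 in IAA with A, 9.04, 9.03 and 9.05 in IAA with B, and 7.93, 7.97, 7.25 and 6.93 in IAA. The differences were 1.61 ± 0.30 with A and 1.52 ± 0.30 with B. Relative to DMSO, the compounds alone differed in psbT by 0.26 (A) and 0.13 (B), both short of the threshold.

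psbD rose by 1.17 ± 0.27 with A and 1.22 ± 0.27 with B, and psbC, for the inner antenna protein CP43, by 0.95 ± 0.22 with A and 0.87 ± 0.22 with B. The 2 genes lie together and partly share their transcripts. psbA read 10.30, 10.18 and 9.91 in IAA with A, 10.86, 10.31 and 11.30 in IAA with B, and 10.59, 9.97, 9.09 and 9.18 in IAA. Its IAA arrays were spread widely (SD 0.71) and overlapped both combinations. In neither combination was psbA past the threshold (0.42 with A and 1.12 with B, adjusted p = 0.565 and 0.0784).

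Among photosystem I genes only psaC (ArthCp075) passed in the combinations. It codes for the subunit that holds the terminal iron-sulphur clusters and lies within the NDH gene cluster. The signals were 10.37, 9.98 and 10.24 in IAA with A, 10.42, 10.31 and 10.34 in IAA with B, and 9.28, 9.31, 8.95 and 8.78 in IAA. All 6 combination arrays were above all 4 IAA arrays, by 1.12 ± 0.26 with A and 1.28 ± 0.26 with B. psaA read 12.36, 12.64 and 11.88 in IAA with A, 11.65, 12.12 and 11.82 in IAA with B, and overlapped the IAA arrays in both, with differences of 0.24 and -0.19.

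**Figure D4:**
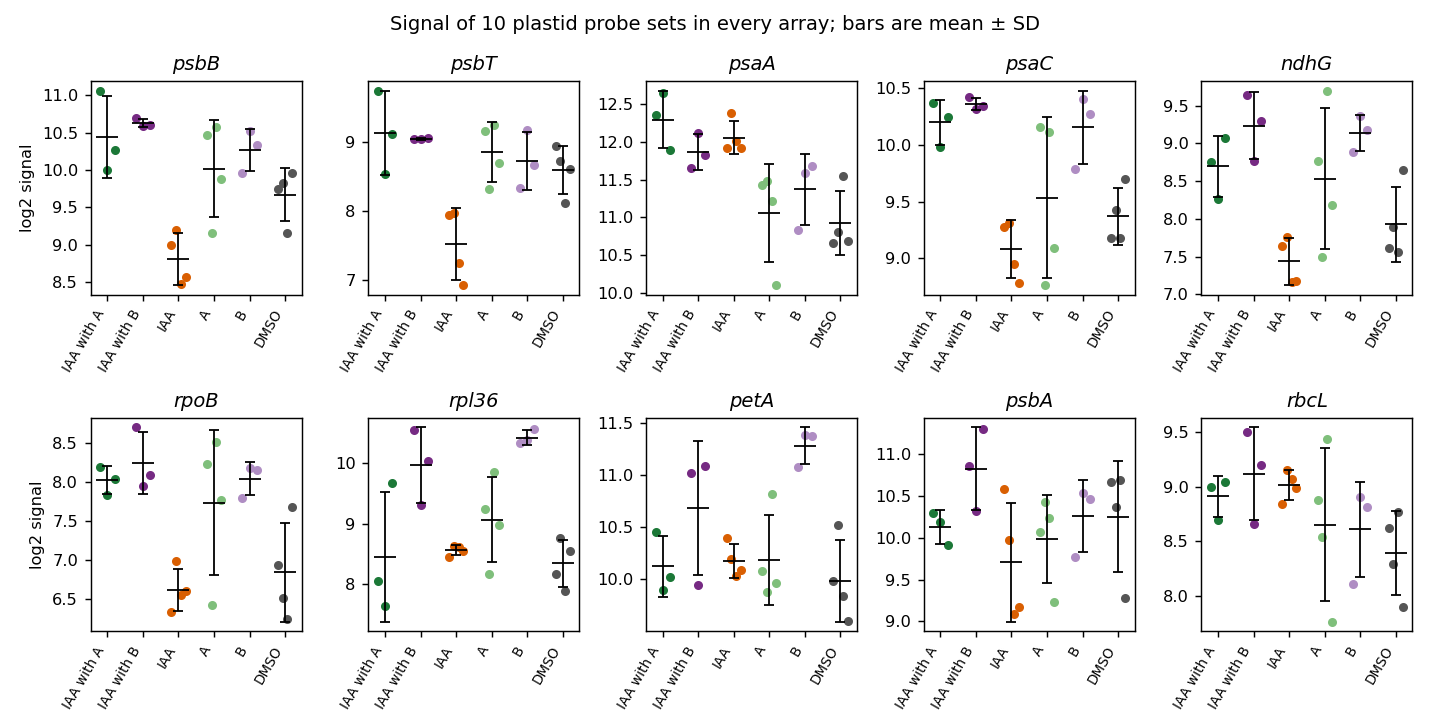
Log2 signal of 10 plastid probe sets in every array (points), with the group mean and SD (bars), for the 6 groups on the x axis; each panel has its own y axis, which does not start at 0. psbB and psbT have their lowest group means in IAA, psaA averages 12.29, 11.86 and 12.05 in the 3 groups with IAA and 11.06, 11.37 and 10.93 in A, B and DMSO, and rpl36 and petA have their highest group means in B.

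In the NDH complex 1 of 10 genes rose in IAA with A and 3 of 10 in IAA with B. ndhG (ArthCp077), for a membrane subunit, read 8.75, 8.27 and 9.07 in IAA with A, 9.64, 8.76 and 9.29 in IAA with B, and 7.64, 7.76, 7.16 and 7.18 in IAA. The combination arrays were all higher, by 1.26 ± 0.37 (adjusted p = 0.0394) with A and 1.80 ± 0.37 (adjusted p = 0.00344) with B. ndhE and ndhD rose in IAA with B, by 1.02 ± 0.29 and 0.53 ± 0.16.

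The RNA polymerase had 3 of 4 rises in IAA with A and 2 of 4 in IAA with B. rpoB read 8.19, 7.84 and 8.04 in IAA with A, 8.70, 7.94 and 8.09 in IAA with B, and 6.33, 6.99, 6.55 and 6.61 in IAA. Each combination array was higher than each IAA array, and the differences were 1.40 ± 0.37 (adjusted p = 0.0210) with A and 1.62 ± 0.37 (adjusted p = 0.00763) with B. rpoC1 rose by 0.98 ± 0.23 with A and 1.095 ± 0.23 with B. rpoC2 rose by 0.65 ± 0.20 with A (adjusted p = 0.0463). rpoA, which lies in a ribosomal protein cluster, differed by -0.00 with A and 1.02 with B (adjusted p = 0.0650 with B), without a call.

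The ribosome contributed no gene in IAA with A and 2 of 15 in IAA with B. rpl36 read 8.06, 7.64 and 9.67 in IAA with A, 10.55, 9.31 and 10.03 in IAA with B, and 8.46, 8.63, 8.61 and 8.54 in IAA. The IAA with A arrays lay on both sides of the IAA arrays, while all IAA with B arrays were higher, by 1.41 ± 0.39 (adjusted p = 0.0315). rps14 read 7.64, 6.36 and 7.04 in IAA with B, against 5.68, 6.15, 5.16 and 5.51 in IAA, a rise of 1.39 ± 0.40 (adjusted p = 0.0390). petD of the cytochrome b6f complex rose in IAA with B by 1.08 ± 0.30. petA and cemA, high under B alone, differed by 0.51 and 0.50 in IAA with B, neither past the threshold.

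The ATP synthase and Rubisco genes did not pass in either combination. atpF read 11.98, 11.97 and 11.86 in IAA with A, 11.56, 11.81 and 11.53 in IAA with B, and 11.68, 12.04, 11.84 and 11.87 in IAA. Both combinations overlapped IAA, and all IAA with A arrays lay above all IAA with B arrays. The role medians of the ATP synthase were 0.05 with A and -0.09 with B, and rbcL differed by -0.10 with A and 0.10 with B.

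Calls of psbB and psbT held in both combinations under all 29 settings, and in IAA with B so did those of psbD, psaC, ndhG and rpoC1. For IAA with A the count was 3 without array IAA with A 1. For IAA with B it was 6 without IAA with B 1 and 7 without IAA with B 3, without IAA 3 or without IAA 4. Without the array labelled IAA 2 the counts were 8 for IAA with A and 12 for IAA with B.

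Differences between the combinations, and between the IAA response with and without a compound, did not pass. In IAA with A against IAA with B limma made 0 calls among the members, where 2.82% of all probe sets passed. At an unadjusted p under 0.05, 8 members were lower with A and none higher. Of all 22746 probe sets, 2156 were lower and 1662 higher at that limit. The lowest adjusted p of the members was that of rpl36, at -1.51 ± 0.42 (adjusted p = 0.0619). The count was 6 without IAA with A 3, 3 without IAA with B 2, and 1 without A 2 or without A 3. The interaction of IAA with A is the response to IAA in the presence of A minus that in its absence. For it there were 0 calls, where 0.0484% of all probe sets passed. An unadjusted p under 0.05 was found in 5 members and in 1112 of all 22746 probe sets. For the interaction of IAA with B there were 0 calls, where 0.0132% passed. Here 6 members and 1313 of all 22746 probe sets had an unadjusted p under 0.05. psbT had the lowest p of the members in both, with 1.35 ± 0.40 for A and 1.40 ± 0.42 for B, and adjusted p-values of 0.704 and 0.626.

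Adding IAA to a compound moved no plastid gene past the threshold. In IAA with A against A there were 0 calls, where 0.831% of all probe sets passed. At an unadjusted p under 0.05, 20 members were higher and 3 lower, against 819 higher and 1009 lower of all 22746 probe sets. Of the members psaA came closest to a call, at 1.23 ± 0.29 (adjusted p = 0.0544). The ATP synthase median was 0.61 with all 6 differences positive. The count was 5 without IAA with A 3, 3 without A 3, and 1 without DMSO 3, without A 2 or without B 1. In IAA with B against B there were 0 calls, where 1.24% of all probe sets passed. An unadjusted p under 0.05 was found in 1 member, petA at -0.60 ± 0.28, and in 1885 of all 22746 probe sets.

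Genes that are transcribed together moved only partly together. In B against DMSO the cluster that starts with psaI had 3 of its 4 genes past the threshold and the ribosomal cluster that contains rpl36 had 4 of 7 (rpl36, rpl14, rpl16 and rpoA). In IAA with A against IAA all 3 measured genes of the rpoB cluster and 2 of 3 of the psbD cluster passed. In IAA with B against IAA 4 of 7 genes of the NDH cluster that holds psaC passed (psaC, ndhG, ndhE and ndhD). The psbB cluster was uneven. psbB and psbT at its start passed in both combinations, while psbH and petB, in its middle, differed by at most 0.22 and 0.23 in size in any comparison. petD, the last measured gene, passed in IAA with B against IAA (1.08) and in B against DMSO (1.01), but not in IAA with A against IAA. The psaA cluster was uneven too, with psaA and psaB higher in IAA against DMSO while rps14, at its other end, differed by -0.32. Over the 91 pairs of genes in the same cluster the median gap between their differences in B against DMSO was 0.37, against 0.41 over the other 2255 pairs, and in IAA against DMSO the gaps were 0.25 and 0.35.

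**Figure D5:**
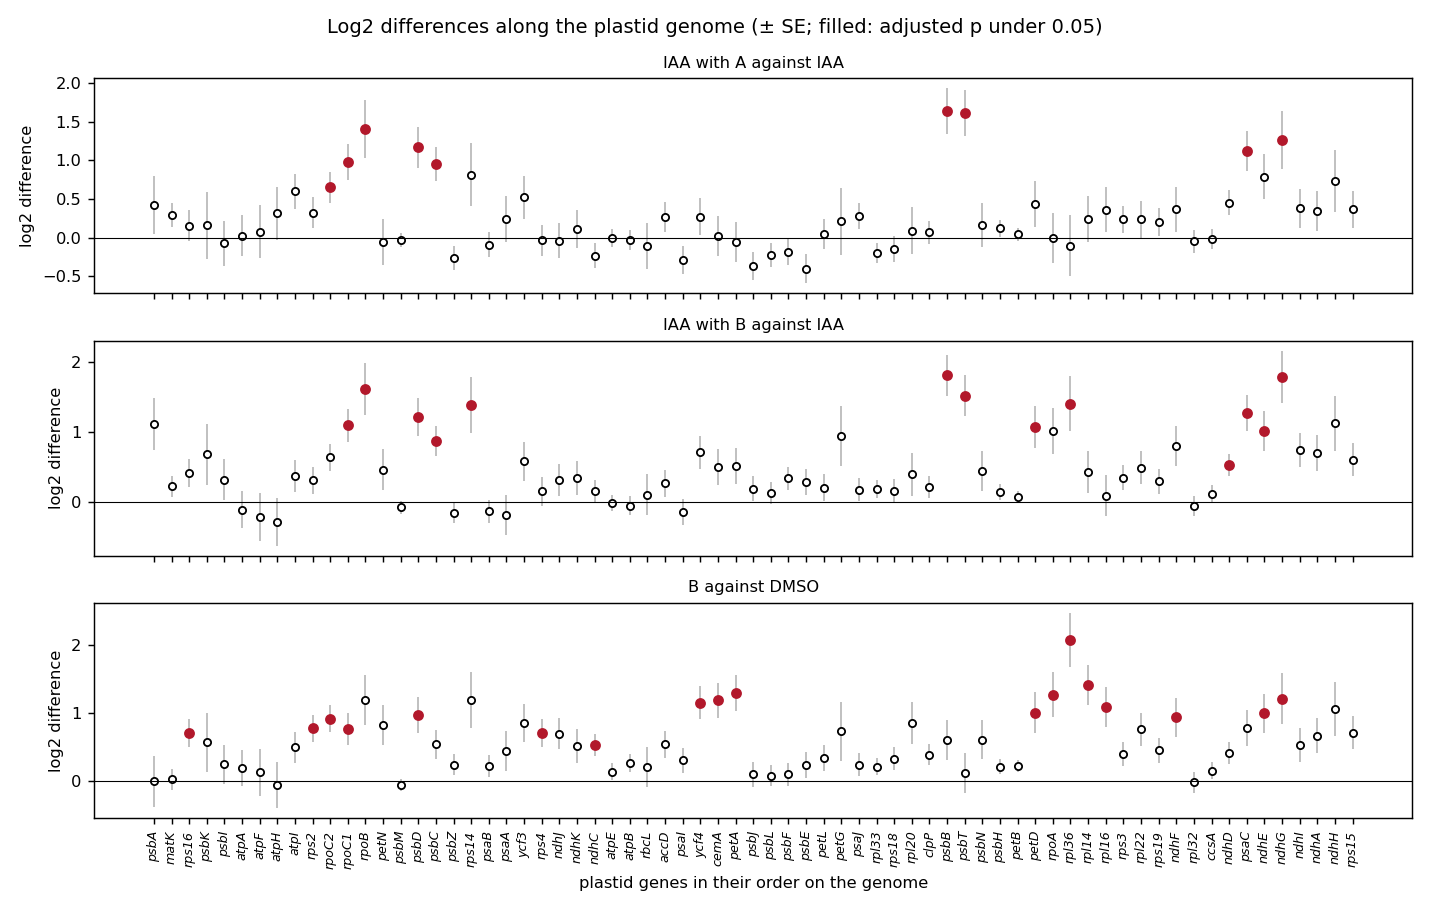
Log2 difference ± SE of the 69 plastid probe sets (y axis) in their order on the plastid genome (x axis, gene names, not to distance) for IAA with A against IAA, IAA with B against IAA and B against DMSO; filled points have an adjusted p under 0.05. Of these 3 comparisons, ycf4, cemA, petA, rpl14 and rpl16 are filled only in B against DMSO, rpl36 is filled there and in IAA with B against IAA, and rpoB, rpoC1, psbD, psbC, psbB and psbT are filled in both combinations.

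Over all 11 comparisons 28 of the 69 members passed at least once and 41 never did. How many of all probe sets passed at least once was not counted, and in single comparisons up to 9.08% of them passed. The pooled count therefore cannot be set against the whole array. All 4 RNA polymerase genes passed somewhere, and 5 of 10 NDH genes, 4 of 15 photosystem II genes and none of the 6 ATP synthase genes did. Of the 49 calls 5 were lower, psbT in IAA against DMSO and 4 in A against B. Members also differed in how much they varied, from psbM, a small photosystem II subunit gene with a range of 0.45 over the 21 arrays, to rpl36 with 2.91.

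Mitochondrial genes and nuclear genes of plastid complexes were read in the same arrays, and the difference between these sets and the plastid genes was not tested. The sets were not measured with like precision. In B against DMSO the median SE was 0.24 for plastid members, 0.15 for mitochondrial, 0.10 for these nuclear and 0.11 for all probe sets. A difference of a given size was therefore called less readily among plastid members. Among the 23 mitochondrial probe sets 2 rose in B against DMSO (median 0.14) and 4 in IAA with B against IAA (median 0.23), among them cox2, for a cytochrome oxidase subunit, at 0.50 ± 0.14 and 0.64 ± 0.14. None passed in IAA with A against IAA or in IAA against DMSO, where 3 and 1 had an unadjusted p under 0.05. Of all 22746 probe sets 5143 and 2577 had such a p in these comparisons. In B against DMSO 20 of the 23 mitochondrial differences were positive and 3 negative, and in IAA with B against IAA 22 and 1. All B arrays lay above all DMSO arrays in 5 of the 23, and all IAA with B arrays above all IAA arrays in 9. The share past the threshold in IAA with B against IAA was 17.4%, against 18.8% of the plastid members. In A against B 1 passed, lower in A, with 22 differences negative and 1 positive. Most listed nuclear genes of plastid complexes were not measured here. Measured were, among others, 2 of 13 light-harvesting, 2 of 12 photosystem I and 5 of 25 plastid ribosomal protein genes. The 17 measured nuclear genes of plastid complexes had 0 calls in B against DMSO (median -0.02). An unadjusted p under 0.05 was found in 1 of the 17 and in 4854 of all 22746 probe sets. The 17 genes had 1 call in IAA with A against IAA, the light-harvesting gene LHCB4.2 at 0.25 ± 0.07 (adjusted p = 0.0305). None of the 6 sigma factors was measured through a probe set with a gene name here, and of the 2 phage-type polymerases 1 was.

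Markers of green tissue and root were read beside these results. Of 11 green shoot markers 1 was measured, RCA for Rubisco activase, which stayed between 13.02 and 13.33 in all arrays. The highest signal of any probe set was 13.63 to 13.91, so RCA lay near the top of the range. How far its signal can still follow a change there was not tested. The summed signal of the 5 root markers was, on the log2 scale, 14.15 to 14.29 in B arrays, against 14.25 to 14.71 in DMSO arrays, and 2 of them fell in B against DMSO, the root hair expansins EXPA7 (difference of -1.96) and EXPA18 (difference of -2.50). In IAA with B the sum was 14.09 to 14.20, against 14.41 to 14.52 in IAA, and 4 of 5 fell. Of all 22746 probe sets 1084 fell past the threshold in B against DMSO and 986 in IAA with B against IAA. PYK10, the marker that did not pass, averaged 13.34 in IAA with B, against 6.12 for EXPA7 and 6.23 for EXPA18. The sum therefore follows the brightest markers and hardly the expansins. The part of tissue make-up in the plastid results was not tested. Copies of plastid sequence in the nuclear and mitochondrial genomes were not compared with the probes.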

How the data were processed

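The authors deposited 1 log2 signal per probe set for each of 21 ATH1 arrays. The probe summary and normalization behind these log2 values are not given in the sources used here. Of 22810 probe sets, 64 controls were left out and 22746 tested, with no filter on low signals. Genes were named by the platform annotation and updated through the RefSeq table (TAIR10.1). Mitochondrial genes absent by identifier were matched by symbol. Group means were estimated jointly from the 21 arrays by limma 3.58.1 (R 4.3.3), with moderated variances following mean signal, after a test on simulated data. p-values were adjusted by Benjamini-Hochberg at 0.05. No column was left unmapped. All 69 members may be named. Values per array are given for psaA, psbT, rpl16, rbcL, psbA, the member with the largest difference of each role, and the lowest adjusted p in each comparison and direction. Any value of another member was chosen after results were seen. Members and lists were chosen with earlier results of these data known. No sequences were read.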

Additional observations from a re-analysis of the deposited data

Results flagged for a closer look

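Of 51 sets of values (1 gene or control in 1 group of 4 arrays) examined for an array far from the others, 4 stood out by Dixon's criterion, and chance alone is expected to mark about 1 in 20. In array IAA 1 cemA read 10.3854, against 10.1134 to 10.1425 in the other IAA arrays. In array A 4 atpF read 9.59684, against 11.4055 to 11.6384 in the other A arrays. In array A 2 the 25S rRNA control read 7.27679, against 5.65 to 5.93 in the other A arrays. In array DMSO 3 psaA read 11.5516, against 10.6584 to 10.8086 in the other DMSO arrays.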

How the results depend on the processing

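Counts of plastid genes past the threshold depended on how the spread was estimated. For the alternative settings and the runs without single arrays, here and above, the share of all probe sets past the threshold is not given. Those counts therefore do not tell if plastid genes changed more often than other probe sets did. With array weights the counts were 2 in IAA against DMSO, 9 in A against DMSO, 33 in B against DMSO, 26 in IAA with A against IAA (22 higher and 4 lower), 24 in IAA with B against IAA, 9 in IAA with A against A (5 higher and 4 lower) and 8 in IAA with A against IAA with B. Fitted on only the arrays of the groups compared, they were 17 in IAA with A against IAA, 25 in IAA with B against IAA and 2 in A against B. Without arrays DMSO 2, DMSO 4, A 2 and IAA with B 1 together they were 0 in IAA against DMSO, 13 in A against DMSO and 1 in IAA with A against A. Among the brightest 60% of probe sets A against DMSO had 1 call. With the 25S rRNA signal as a covariate, added after seeing the data, B against DMSO had 4. The causes were not tested. Leaving out 1 array at a time, the counts ranged from 0 to 9 in IAA against DMSO, 0 to 8 in A against DMSO, 6 to 27 in B against DMSO, 3 to 10 in IAA with A against IAA, 6 to 19 in IAA with B against IAA, 0 to 6 in A against B, 0 to 5 in IAA with A against A and 0 to 6 in IAA with A against IAA with B, and stayed at 0 in IAA with B against B and both interactions. Same-numbered arrays of different groups gave 48 pairs with a median r of 0.03 (range -0.43 to 0.54, 15 over 0.1). Differently numbered arrays gave 135 pairs with a median r of -0.03 (range -0.57 to 0.53, 33 over 0.1). The ranges were alike, and the main model used no pairing by number. With the replicate number as a block the counts were 7 in IAA against DMSO, 20 in B against DMSO, 9 in IAA with A against IAA, 15 in IAA with B against IAA, 4 in A against B and 1 in IAA with A against IAA with B. No called member changed direction: of 1419 pairs of a call and a setting 1146 stayed past the threshold and 273 did not. A batch by chip lot was not run, since the records give 1 lot. Quantile scaling and moderation without the intensity trend kept each count within 1.5 times.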

Other observations

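The 8 probe sets that pair with both copies of a duplicated plastid gene (rps12, with 2 probe sets, rps7, rpl2, rpl23, ycf1, ycf2 and ndhB) had 0 calls in each of the 11 comparisons. In B against DMSO all 8 differences were positive, with a median of 0.61, and 5 had an unadjusted p under 0.05. In IAA with B against IAA the median was 0.31, and 1 had an unadjusted p under 0.05. Of all 22746 probe sets 4854 had such a p in B against DMSO and 4691 in IAA with B against IAA. rpl32, for a large subunit protein, varied least between groups among the 69 members, with no difference above 0.07 in size.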
